A study of Mus musculus with 7 samples.

Results

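The canonical forms of polycomb repressive complex 1 (PRC1) were followed through the transcripts of 9 listed subunit genes in alveolar macrophages of mouse chimeras with and without Suz12. The 9 genes were taken by symbol through their Entrez numbers. They were Bmi1 and Pcgf2, Cbx2, Cbx6, Cbx7 and Cbx8, Phc1 and Phc2, and Scmh1, of 27179 genes in the count table. All 9 passed the filter on low counts, as did 14436 genes in all. Alveolar macrophages, the phagocytes that live in the airspaces of the lung, were sorted from lung by flow cytometry. The recipients were lethally irradiated C57BL/6-Ly5.1 mice given mixed bone marrow. In the Suz12 cKO group (3 libraries) 90% of the marrow was Suz12 cKO and carried Ly5.2, and in the WT group (4 libraries) 90% was wild type and carried Ly5.2. Irradiation and 10% wild type Ly5.1 competitor marrow were common to both groups. The libraries are called biological replicates in the design text. The sources used here do not state the Cre line, the deleted Suz12 exons, whether competitor cells were gated out, or the age and sex of the mice. These are bulk samples, so fewer cells of a type and less RNA per cell cannot be told apart.

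Polycomb proteins keep genes silent through chromatin. PRC2, of which SUZ12 is a core subunit, methylates lysine 27 of histone H3, and the chromodomain of the CBX proteins in canonical PRC1 binds that mark. Canonical PRC1 is built on a RING1 or RNF2 ubiquitin ligase paired with BMI1 or PCGF2, to which a CBX protein, a PHC protein and, more loosely, an SCM protein such as SCMH1 are joined. PHC proteins chain through their SAM domains and compact chromatin. Variant PRC1 complexes carry RYBP or YAF2 in place of a CBX protein. In blood cells BMI1 is known for the upkeep of stem cells and for silencing of the Cdkn2a locus.

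Total counts per library were 63923829, 65257142 and 70473901 in Suz12 cKO and lay between 48104653 and 79281431 in WT. Suz12 stood at 22.1, 23.6 and 15.1 CPM (counts scaled to a common library total, after edgeR's TMM normalization) in Suz12 cKO, against 56.5, 56.3, 73.9 and 68.9 CPM in WT. Every Suz12 cKO value was below every WT value (log2 fold change -1.65, SE 0.18, edgeR adjusted p = 0.00134). Since the count covers the whole gene, it also holds reads from any exon that was not deleted. All 16 listed alveolar macrophage markers, among them Siglecf and Marco, had counts in every library. In CPM of the unscaled total, their sum was 35887 to 41151 in Suz12 cKO and 29420 to 34528 in WT. On that scale, ranges of 8 of the 16 lay wholly above WT in Suz12 cKO, and those of 2, Siglecf and Cidec, wholly below. In TMM-scaled CPM, 8 lay wholly above and 1 wholly below, where 2029 and 1655 of all 14436 tested genes did. Haemoglobin transcripts (Hba-a1, Hba-a2 and Hbb-bs, CPM of the unscaled total) were over 20 CPM in Suz12 cKO replicates 1 and 2, at 146 and 108, and in WT replicate 2, at 39.7. The other libraries held 1.94 CPM in Suz12 cKO replicate 3 and 2.10 to 3.72 CPM in WT replicates 1, 3 and 4. The fold change of each member is therefore also given within each of these sets of libraries, a split known from earlier work on these data. For Suz12 it was -1.30 within the libraries over the threshold and -2.15 within those under it (edgeR adjusted p = 0.00456 and 0.00301). Each within-set comparison has 1 library on one side, which is assumed to vary like the rest.

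Bmi1, Cbx7 and Scmh1 were the members higher in Suz12 cKO, and no member was called lower. By edgeR's quasi-likelihood test at an adjusted p under 0.05, 3 of 9 were called higher, where 6.28% of all tested genes were (906 of 14436). The count called lower was 0 of 9, against 4.02% of all tested genes (580). At an unadjusted edgeR p under 0.05 there were 5 of 9 members, and 24.5% of all tested genes. DESeq2 called 4 members higher and 0 lower, where it called 9.52% of its tested genes higher and 5.65% lower. With limma-voom, too, 4 members were called higher and 0 lower, against 8.28% and 4.88% of all tested genes. The median log2 fold change of the 9 was 0.95, against 0.00 over all tested genes. Ranges of CPM did not overlap between the groups for 6 of 9 members, 5 above and 1 below, where 25.5% of all tested genes had ranges that did not overlap in either direction.

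**Figure D1:**
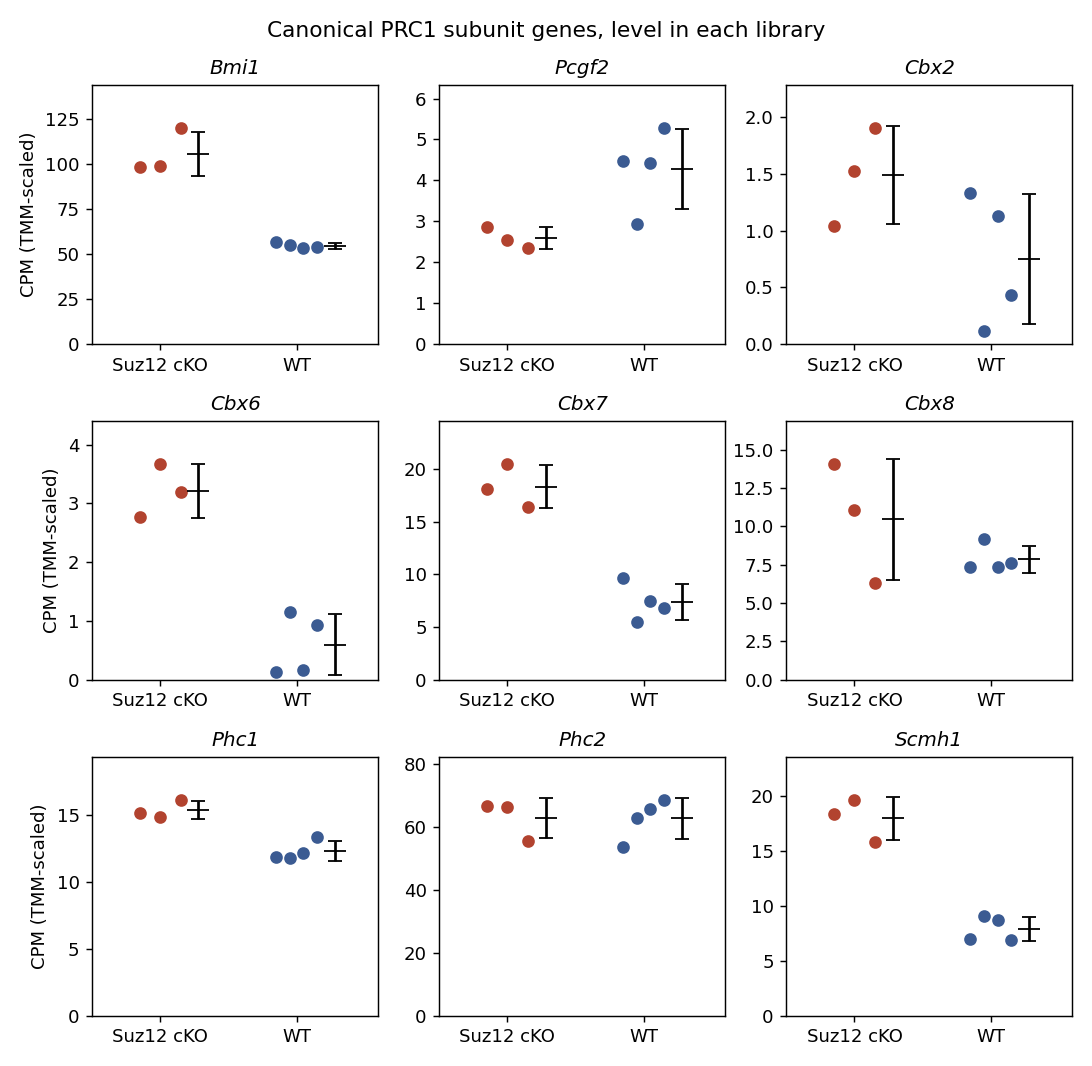
Level of each canonical PRC1 subunit gene in CPM (vertical axis, from 0, own scale for each gene), with 1 point per library, Suz12 cKO left and WT right, and a bar for the mean ± SD (n = 3 and n = 4). Bmi1, Cbx6, Cbx7, Phc1 and Scmh1 have every Suz12 cKO point above every WT point, and Pcgf2 has every Suz12 cKO point below.

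**Figure D2:**
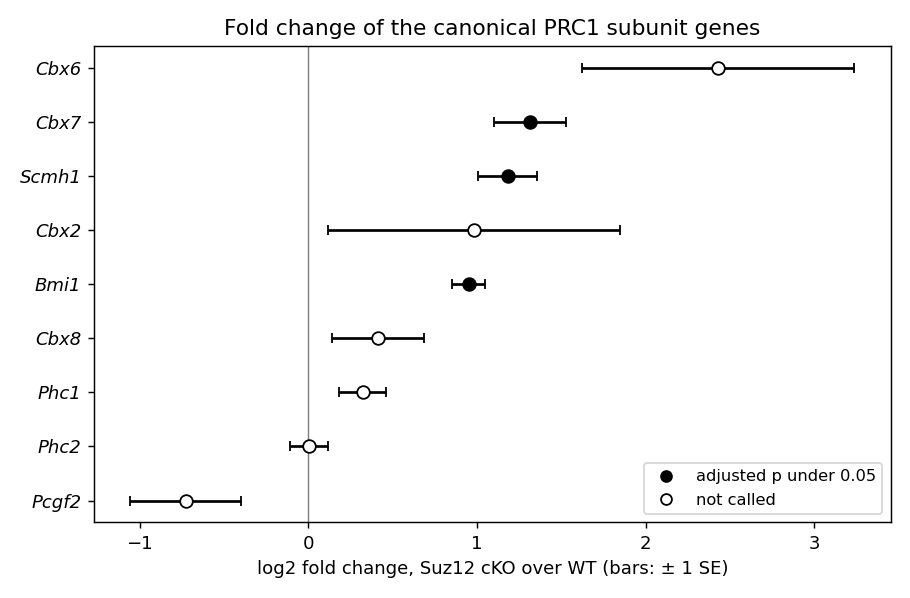
Log2 fold change of each member, Suz12 cKO over WT (horizontal axis), with a bar of 1 SE to each side. Filled points passed edgeR's adjusted p of 0.05, and these are Cbx7 at 1.31, Scmh1 at 1.18 and Bmi1 at 0.95, while Cbx6 at 2.43 and Cbx2 at 0.98 have the widest bars.

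Bmi1, a PCGF subunit that pairs with the RING ligase, had the clearest difference of the 9. Its levels were 98.6, 98.8 and 120.1 CPM in Suz12 cKO, against 56.8, 55.3, 53.2 and 53.8 CPM in WT. The WT libraries lay close together, and the lowest Suz12 cKO library was well above the highest of them. Means were 106 ± 12.4 CPM in Suz12 cKO and 54.8 ± 1.65 CPM in WT (SD, n = 3 and n = 4), a fold of 1.93 (log2 fold change 0.95, SE 0.10, edgeR adjusted p = 0.000978). By p-value it ranked 65 of the 14436 genes. Behind these levels were 6249 to 8585 counts in Suz12 cKO and 2607 to 4567 in WT. The log2 fold change was 0.84 within the libraries over the haemoglobin threshold (edgeR adjusted p = 0.0133) and 1.12 within those under it (adjusted p = 0.00400).

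Bmi1 lies on chromosome 2 at 18677018 to 18686629 of GRCm38, the build to which mm10 corresponds. Promoters are shown for the 3 members called, as the 300 bases from 250 before to 50 after a transcript start in RefSeq GRCm38.p6, 5′ to 3′ in the direction of the gene. Capitals mark CACGTG, the E-box, and GGGCGG, the GC box, on either strand. The window of Bmi1 is chr2:18676768-18677067 on the plus strand, that of Cbx7 is chr15:79932597-79932896 on the minus strand, at a start inside the annotated extent of the gene, and that of Scmh1 is chr4:120405098-120405397 on the plus strand.
Bmi1: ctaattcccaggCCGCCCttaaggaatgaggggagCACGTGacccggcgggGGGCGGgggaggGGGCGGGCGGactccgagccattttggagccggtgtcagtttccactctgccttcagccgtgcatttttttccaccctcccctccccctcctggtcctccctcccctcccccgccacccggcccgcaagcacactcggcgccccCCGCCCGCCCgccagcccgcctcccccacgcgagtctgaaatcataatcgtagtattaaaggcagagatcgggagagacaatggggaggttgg
Cbx7: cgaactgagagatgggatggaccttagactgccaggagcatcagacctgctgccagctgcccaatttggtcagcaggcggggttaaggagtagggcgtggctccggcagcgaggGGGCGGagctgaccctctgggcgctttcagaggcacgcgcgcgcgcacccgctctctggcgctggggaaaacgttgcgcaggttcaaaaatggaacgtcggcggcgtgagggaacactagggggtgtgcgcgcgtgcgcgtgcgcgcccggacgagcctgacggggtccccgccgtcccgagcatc
Scmh1: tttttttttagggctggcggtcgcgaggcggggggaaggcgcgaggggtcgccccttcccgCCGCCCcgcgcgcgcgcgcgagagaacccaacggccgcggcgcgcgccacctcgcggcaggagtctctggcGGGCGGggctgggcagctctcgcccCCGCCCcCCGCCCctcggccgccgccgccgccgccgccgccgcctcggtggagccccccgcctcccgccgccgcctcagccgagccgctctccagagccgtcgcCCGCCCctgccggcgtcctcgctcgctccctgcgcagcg
The Bmi1 window held 23 CG pairs, 1 CACGTG and 6 GGGCGG. There were 33 CG pairs and 1 GGGCGG in the Cbx7 window, and 54 CG pairs and 5 GGGCGG in that of Scmh1. A second Scmh1 window, at chr4:120452994-120453293, had 0 CG pairs. Over 32851 promoters of the same length the median was 7 CG pairs.

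For comparison, 6 motifs were counted on both strands in all 11 windows that matched 8 of the 9 members, with Cbx2 named only. The motifs were chosen after sequences had been seen. CACGTG was in 5 of 11 windows and in 7.15% of all promoters, and GGGCGG in 8 of 11 and 35.7%. Both strings contain CG, and the promoters compared were not matched to these windows for CG pairs. CCAAT was in 4 of 11 and 37.4%. The E2F-type strings TTTGGCGC and TTTCGCGC and the ETS-type string GAGGAAGT were in 0 of 11, and in 0.514%, 0.323% and 3.20% of all promoters. Occurrences may overlap, and a match is a match of letters in this window.

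Pcgf2, which can take the place of Bmi1 in the complex and is also known as Mel18, was not called. Its levels were 2.87, 2.54 and 2.34 CPM in Suz12 cKO, against 4.47, 2.94, 4.43 and 5.28 CPM in WT. All 3 Suz12 cKO libraries were below all 4 WT libraries, though WT replicate 2 was close. The log2 fold change of -0.73 (SE 0.33) did not pass (edgeR adjusted p = 0.216). It was -0.12 within the libraries over the haemoglobin threshold (edgeR adjusted p = 0.931) and -1.03 within those under it (adjusted p = 0.231). The counts were low, at 167 to 182 in Suz12 cKO and 179 to 359 in WT, and their part in the error was not tested.

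The share of Bmi1 within the pair was 96.4%, 96.8% and 97.6% in Suz12 cKO, against 90.9%, 93.7%, 90.5% and 88.9% in WT, from CPM per kilobase of deposited gene length. Every Suz12 cKO library had a larger Bmi1 share than every WT library. The log2 difference of Bmi1 over Pcgf2 was 5.34 ± 0.297 in Suz12 cKO and 3.70 ± 0.373 in WT (SD, n = 3 and n = 4), which is 1.64 larger in Suz12 cKO. The exact permutation test over the 35 assignments of libraries gave a two-sided p = 0.0571, the smallest that 3 against 4 libraries allow, and 0.143 adjusted over 5 pairs of paralogues. Summed per kilobase, the pair stood at 30.4 ± 3.37 in Suz12 cKO and 16.7 ± 0.474 in WT.

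Of the 4 listed CBX genes, Cbx7 was the one called higher. Its protein reads the mark of PRC2 and is known in mouse embryonic stem cells as the main CBX protein of canonical PRC1. Levels were 18.1, 20.5 and 16.4 CPM in Suz12 cKO, against 9.68, 5.51, 7.46 and 6.82 CPM in WT. The groups did not overlap, and WT replicate 1 was the nearest to Suz12 cKO. Means were 18.3 ± 2.06 CPM in Suz12 cKO and 7.37 ± 1.74 CPM in WT, a fold of 2.48 (log2 fold change 1.31, SE 0.21, edgeR adjusted p = 0.00635). Within the libraries over the haemoglobin threshold the log2 fold change was 1.81 (edgeR adjusted p = 0.00628), and within those under it 1.02 (adjusted p = 0.0740), which did not pass.

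Cbx6 had the largest fold of the 9 but few counts. Levels were 2.76, 3.67 and 3.19 CPM in Suz12 cKO, against 0.137, 1.15, 0.170 and 0.928 CPM in WT, from 175 to 241 counts in Suz12 cKO and 10 to 70 in WT. Every Suz12 cKO library was above every WT library, and the WT libraries fell into a pair near 1 CPM (replicates 2 and 4) and a pair far below it. Its log2 fold change was 2.43 (SE 0.81, unadjusted p = 0.0150, edgeR adjusted p = 0.0967). It passed in 3 of 16 alternatives, with DESeq2 (adjusted p = 0.0165), with limma-voom (adjusted p = 0.0248) and in edgeR without WT replicate 2 (adjusted p = 0.0402), and in the other 13 it did not. Within the libraries over the haemoglobin threshold the log2 fold change was 1.49 (edgeR adjusted p = 0.208), and within those under it 2.94 (adjusted p = 0.197).

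Cbx8 was not called. It had 14.1, 11.1 and 6.28 CPM in Suz12 cKO, against 7.34, 9.17, 7.34 and 7.61 CPM in WT. Suz12 cKO replicate 3 was below every WT library and the other 2 were above them all, so the ranges overlapped. The log2 fold change of 0.41 (SE 0.27, edgeR adjusted p = 0.410) was 0.45 within the libraries over the haemoglobin threshold (edgeR adjusted p = 0.418). Within those under it, which hold that replicate as their single Suz12 cKO library, the value turned to -0.26 (edgeR adjusted p = 0.653).

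Cbx2 was the member with the fewest counts. Levels were 1.04, 1.52 and 1.90 CPM in Suz12 cKO, against 1.33, 0.115, 1.12 and 0.433 CPM in WT, the lowest of them from 7 counts. The ranges overlapped, and the log2 fold change of 0.98 had an SE of 0.87 (edgeR adjusted p = 0.558). It was 3.46 within the libraries over the haemoglobin threshold (edgeR adjusted p = 0.213), whose single WT library is the one with 7 counts, and 0.97 within those under it (adjusted p = 0.590). Cbx2 (119023019 to 119031275) and Cbx8 (119036303 to 119040913) lie 5027 bases apart on chromosome 11, on opposite strands.

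Within the 4 listed CBX genes, Cbx7 and Cbx8 made up most of the summed level per kilobase in every library. These shares are of the 4 genes and not of all CBX genes. Cbx7 took 36.5%, 44.0% and 50.2% in Suz12 cKO, against 37.2%, 21.8%, 31.5% and 29.1% in WT, and Cbx8 took 58.9%, 49.3% and 40.0% in Suz12 cKO, against 58.6%, 75.4%, 64.4% and 67.4% in WT. Summed per kilobase, the 4 genes stood at 14.8 ± 3.14 in Suz12 cKO and 8.51 ± 0.433 in WT. For both shares Suz12 cKO replicate 1 and WT replicate 1 were alike and the ranges overlapped. The log2 difference of Cbx7 over Cbx8 was 0.99 larger in Suz12 cKO (exact permutation two-sided p = 0.114, 0.190 adjusted over the 5 pairs). Cbx7 over Cbx6 was lower by 1.53 (log2 difference -1.53, exact permutation p = 0.286, adjusted 0.357) and Cbx7 over Cbx2 differed by -0.04 (exact permutation p = 0.971, adjusted 0.971). None of the 5 pairs passed, and none could have.

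**Figure D3:**
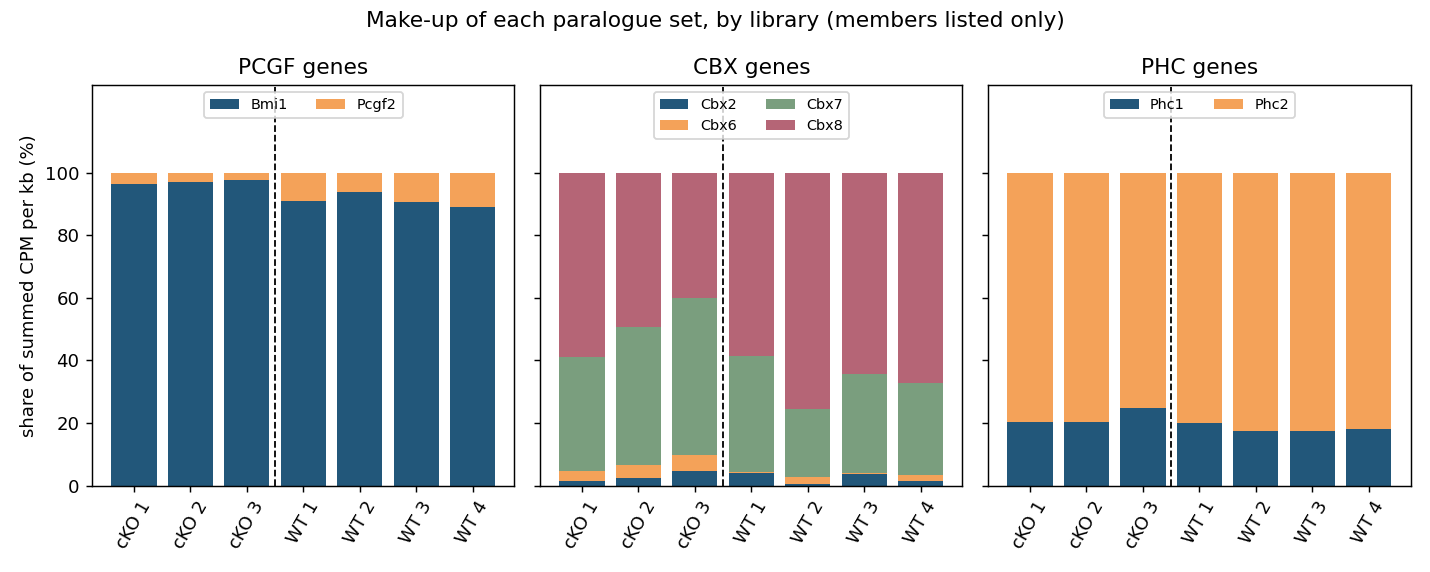
Share of each listed gene in the summed CPM per kilobase of its paralogue set (vertical axis, percent), with 1 bar per library, Suz12 cKO left of the dashed line and WT right. Bmi1 holds 96.4% to 97.6% of its pair in Suz12 cKO and 88.9% to 93.7% in WT, and the CBX shares vary among libraries of both groups.

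Neither listed PHC gene was called, and the shares below are of this pair and not of all PHC genes. Phc1 had 15.1, 14.9 and 16.2 CPM in Suz12 cKO, against 11.9, 11.8, 12.2 and 13.4 CPM in WT. The groups did not overlap, with a step much smaller than that of Bmi1. Its log2 fold change of 0.32 (SE 0.14, unadjusted p = 0.0464, edgeR adjusted p = 0.195) did not pass, and it was 0.35 and 0.36 within the libraries over and under the haemoglobin threshold (edgeR adjusted p = 0.479 and 0.377). Phc2 had 66.8, 66.4 and 55.6 CPM in Suz12 cKO, against 53.7, 63.0, 65.8 and 68.7 CPM in WT, with ranges that overlapped almost wholly and a log2 fold change of 0.00 (SE 0.11, edgeR adjusted p = 0.991). It was 0.08 within the libraries over the haemoglobin threshold and -0.19 within those under it (edgeR adjusted p = 0.807 and 0.566). Phc2 made up 75.2% to 79.7% of the pair per kilobase in Suz12 cKO and 79.9% to 82.7% in WT, and the pair summed to 18.5 ± 1.29 in Suz12 cKO and 17.6 ± 1.63 in WT. The log2 difference of Phc1 over Phc2 was 0.32 larger in Suz12 cKO (exact permutation two-sided p = 0.0571, adjusted 0.143).

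Scmh1, an SCM protein with MBT repeats and a SAM domain that binds PHC proteins, rose by a step like that of Cbx7. Levels were 18.4, 19.7 and 15.8 CPM in Suz12 cKO, against 6.98, 9.04, 8.69 and 6.91 CPM in WT. The lowest Suz12 cKO library, replicate 3, was above the highest WT library, replicate 2. Means were 18.0 ± 1.96 CPM in Suz12 cKO and 7.90 ± 1.12 CPM in WT, a fold of 2.27 (log2 fold change 1.18, SE 0.18, edgeR adjusted p = 0.00434). The log2 fold change was 1.07 within the libraries over the haemoglobin threshold (edgeR adjusted p = 0.0374) and 1.06 within those under it (adjusted p = 0.0613), which did not pass.

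Levels of different genes were compared as CPM per kilobase of gene length. In Suz12 cKO the order of mean levels was Bmi1 (29.5), Phc2 (14.4), Cbx8 (7.52), Cbx7 (6.33), Scmh1 (5.29), Phc1 (4.01), Pcgf2 (0.911), Cbx6 (0.589) and Cbx2 (0.398). Neighbours in that order had overlapping ranges for Cbx8 with Cbx7, Cbx7 with Scmh1, and Cbx6 with Cbx2. In WT it was Bmi1 (15.2), Phc2 (14.4), Cbx8 (5.65), Phc1 (3.21), Cbx7 (2.55), Scmh1 (2.33), Pcgf2 (1.51), Cbx2 (0.201) and Cbx6 (0.109). Ranges overlapped in WT for Bmi1 with Phc2, Phc1 with Cbx7, Cbx7 with Scmh1, and Cbx2 with Cbx6. Bmi1 and Phc2 were thus not separated in WT, whereas every Bmi1 value was above every Phc2 value in Suz12 cKO, and Cbx7 and Scmh1 stood above Phc1 in Suz12 cKO.

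The members' positions and nearest genes in RefSeq GRCm38.p6 were compared, since counts of overlapping genes cannot be told apart where strand was not used, and the sources used here do not state the strand setting. Commd3, a gene on the same strand 786 bases before Bmi1, had 86.8, 99.96 and 82.9 CPM in Suz12 cKO, against 95.8, 74.8, 84.6 and 73.4 CPM in WT (log2 fold change 0.13, edgeR adjusted p = 0.581). Its groups overlapped where those of Bmi1 did not. Apobec3, which overlaps the end of Cbx7 (chromosome 15, 79915804 to 79971143) on the opposite strand, had a log2 fold change of 0.04 (edgeR adjusted p = 0.936). Cbx6 (chromosome 15, 79823898 to 79834333) overlaps Npcd, not tested, and Nptxr lies 19188 bases away. Nptxr, a neuronal pentraxin receptor gene, had 7.24, 3.81 and 9.49 CPM in Suz12 cKO, against 1.78, 2.64, 0.732 and 1.53 CPM in WT (log2 fold change 2.03, edgeR adjusted p = 0.0314). M6pr, which ends 50 bases from the end of Phc1 (chromosome 6, 122317731 to 122340227) on the opposite strand, had a log2 fold change of -0.23 (edgeR adjusted p = 0.167). Cisd3, 195 bases from Pcgf2 (chromosome 11, 97688821 to 97702434), had one of -0.09 (edgeR adjusted p = 0.932), and A3galt2, 6376 bases from Phc2 (chromosome 4, 128654655 to 128752881), one of 1.28 with an SE of 1.61. Scmh1 is at 120405150 to 120530200 of chromosome 4.

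Genes whose pattern over the 7 libraries was most like that of each member were found by the root mean square difference of log2 CPM, centred on each gene's mean. For Bmi1 they were Vwa8 (0.0949), Pdlim2 (0.100) and Akr1c12 (0.103). For Cbx7 they were Zfp691 (0.142), Armcx3 (0.176) and Arl6 (0.183), and for Scmh1 Txnrd3 (0.0895), Jag1 (0.119) and Sc5d (0.145). No member was among the 3 nearest genes of another. Phc1 was nearest to Itgb5, Adam22 and Rftn1, Phc2 to Arid1a, Mta3 and Sipa1l3, Cbx8 to Ammecr1, Ddx60 and Snapc1, and Pcgf2 to Ccdc166, Gm21370 and Mrps15. The low-count members had less close neighbours, Cbx6 with Gm4876 (0.267), Rcn1 and Esyt3, and Cbx2 with 1810044D09Rik (0.372), Slc40a1 and Hpse.

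Among the partners of the members, the RING ligase genes, the core of every PRC1, had 0 of 2 called. Of all tested genes, 6.28% were called higher and 4.02% lower. Rnf2 stood at 31.3, 28.7 and 25.3 CPM in Suz12 cKO, against 22.8, 23.8, 20.6 and 16.2 CPM in WT, without overlap (log2 fold change 0.45, edgeR adjusted p = 0.117). Ring1 had a log2 fold change of 0.14 (edgeR adjusted p = 0.657). Neither of the SCM-like genes Scml4 and Scml2 was called. Scml4 had a log2 fold change of -0.48 (edgeR adjusted p = 0.307), and Scml2, at or under 0.900 CPM in every library, had one of 1.90 with an SE of 1.95.

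Of 27 symbols listed for variant PRC1, 26 matched a gene and 25 were tested. Of these 25, 1 was called higher and 1 lower, where 6.28% and 4.02% of all tested genes were. The median log2 fold change of the 25 was -0.00. Mga, a scaffold of the variant complex with PCGF6, had 92.3, 82.1 and 94.4 CPM in Suz12 cKO, against 58.7, 71.5, 75.5 and 63.4 CPM in WT, without overlap (log2 fold change 0.41, edgeR adjusted p = 0.0469). Tfdp1, the dimer partner of E2F factors, had 24.9, 21.9 and 22.5 CPM in Suz12 cKO, against 32.2, 29.8, 35.3 and 33.6 CPM in WT, also without overlap (log2 fold change -0.50, edgeR adjusted p = 0.0233). Of the 7 fits that left out 1 library, Mga was called in 1, without WT replicate 2, and Tfdp1 in 2, without Suz12 cKO replicate 1 and without WT replicate 2. Wdr5, shared with other chromatin complexes, had a log2 fold change of -0.36 (edgeR adjusted p = 0.117). Bmi1, Cbx7 and Scmh1 had larger fold changes than all 25.

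PR-DUB, which removes the ubiquitin that PRC1 adds, had 0 of 9 called, where 6.28% of all tested genes were called higher and 4.02% lower. Its median was -0.01. Its 3 smallest p-values belonged to Mbd5 (log2 fold change 0.67, edgeR adjusted p = 0.0522), Asxl1 (-0.24, adjusted p = 0.0875) and Hcfc1 (-0.24, adjusted p = 0.162). Mbd5 passed in 6 of 16 alternatives, among them DESeq2 (adjusted p = 0.0144). Of 13 PRC2 genes 12 were tested, with a median of -0.12. Suz12 was the single gene called, beside the same shares of all tested genes. Phf1, an accessory subunit, had a log2 fold change of 0.54 (edgeR adjusted p = 0.0552) and Mtf2, another, one of -0.36 (adjusted p = 0.0972). Phf1 passed in 4 of 16 alternatives, among them DESeq2 (adjusted p = 0.0132) and limma-voom (adjusted p = 0.0345). The HP1 genes Cbx1, Cbx3 and Cbx5 share the chromodomain but bind methylated lysine 9 of histone H3. Of these 3, Cbx3 was called lower and 0 were called higher, where 4.02% and 6.28% of all tested genes were. Cbx3 had 17.4 ± 2.07 CPM in Suz12 cKO and 24.7 ± 1.98 CPM in WT (SD, n = 3 and n = 4, log2 fold change -0.51, edgeR adjusted p = 0.0474). Cbx3, too, was called in 1 of the 7 fits that left out a library, without WT replicate 2. Cbx5 and Cbx1 had log2 fold changes of -0.32 (edgeR adjusted p = 0.422) and -0.04 (adjusted p = 0.910).

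Cdkn2a and Cdkn2b, cell cycle inhibitor genes at a locus that PRC1 with BMI1 is known to silence, were both higher in Suz12 cKO, as was Bmi1. Cdkn2a had 177, 163 and 171 CPM in Suz12 cKO, against 15.5, 16.4, 1.02 and 2.87 CPM in WT (log2 fold change 4.24, edgeR adjusted p = 0.0118). Cdkn2b had 25.2, 21.7 and 30.3 CPM in Suz12 cKO, against 6.31, 6.22, 2.91 and 3.90 CPM in WT (log2 fold change 2.41, edgeR adjusted p = 0.00191). Neither gene overlapped between the groups.

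**Figure D4:**
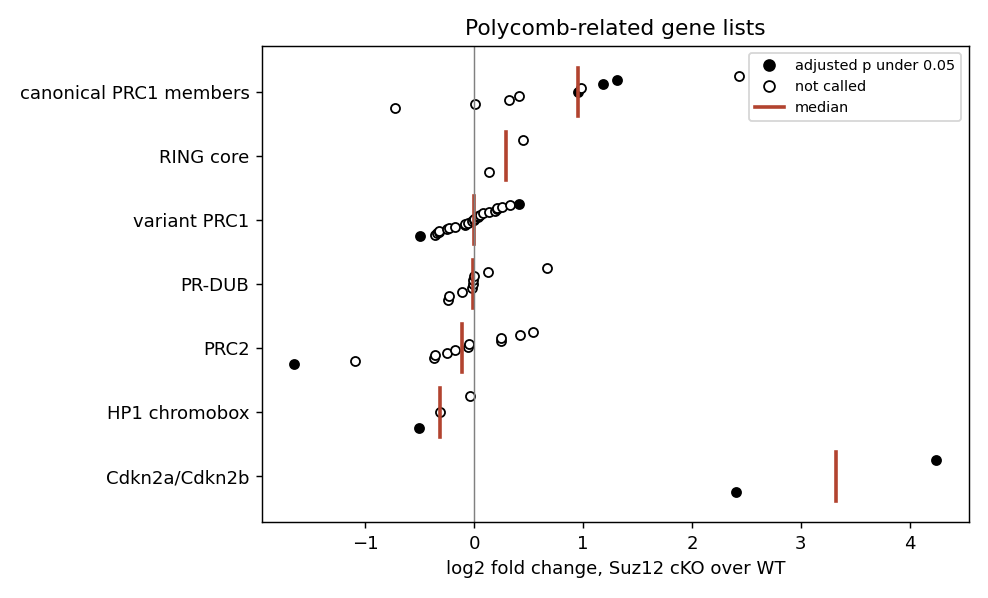
Log2 fold change, Suz12 cKO over WT (horizontal axis), of each tested gene of the members and of the lists named on the vertical axis. The list that holds Scml2 and Scml4 is not drawn. Filled points have an edgeR adjusted p under 0.05, and a bar marks the median of each list. The 9 canonical members have a median of 0.95, the variant PRC1 genes lie between -0.50 and 0.41, and Suz12 is the filled PRC2 point at -1.65.

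Sums of the markers of some other cells, in CPM of the unscaled total, stood apart between the groups. The 6 neutrophil markers summed to 117 to 175 CPM in Suz12 cKO and 55.9 to 67.8 CPM in WT. Of the 6, 4 were wholly above WT, and Ly6g was at 0 in every library. Among all 14436 tested genes, 2029 lay wholly above WT and 1655 wholly below, in TMM-scaled CPM. The 5 fibroblast markers summed to 31.1 to 41.3 CPM in Suz12 cKO and 0.0208 to 21.7 CPM in WT, in Suz12 cKO mostly Pdgfra. The 7 alveolar epithelial markers summed to 56.6 to 85.4 CPM in Suz12 cKO and 171 to 226 CPM in WT. Epcam was the largest part of that sum in every library, at most 59.9 CPM in Suz12 cKO and at least 151 CPM in WT. It was the 1 marker of the 7 wholly below WT, and the ranges of the others, surfactant genes among them, overlapped. The sum of 10 monocyte and interstitial macrophage markers overlapped, at 224, 292 and 430 CPM in Suz12 cKO, against 102, 309, 147 and 136 CPM in WT, and 2 of the 10 were wholly above WT. Its highest value was in Suz12 cKO replicate 3, the library in which Bmi1 was also highest. Cbx7 and Scmh1, at 16.4 and 15.8 CPM there, were at their lowest among the Suz12 cKO libraries. In WT the sum was highest in replicate 2, where Bmi1 was at 55.3 CPM, between the other WT libraries at 53.2 to 56.8 CPM. Endothelial, T cell, B cell, NK cell, eosinophil and erythroid sums overlapped between the groups. The libraries over the haemoglobin threshold had counts for all 5 fibroblast and all 5 endothelial markers. In each of the other libraries, 4 of the 5 fibroblast and 2 to 3 of the 5 endothelial markers were at 0. The part of these transcripts in the differences of Bmi1, Cbx7 and Scmh1 was not tested.

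**Figure D5:**
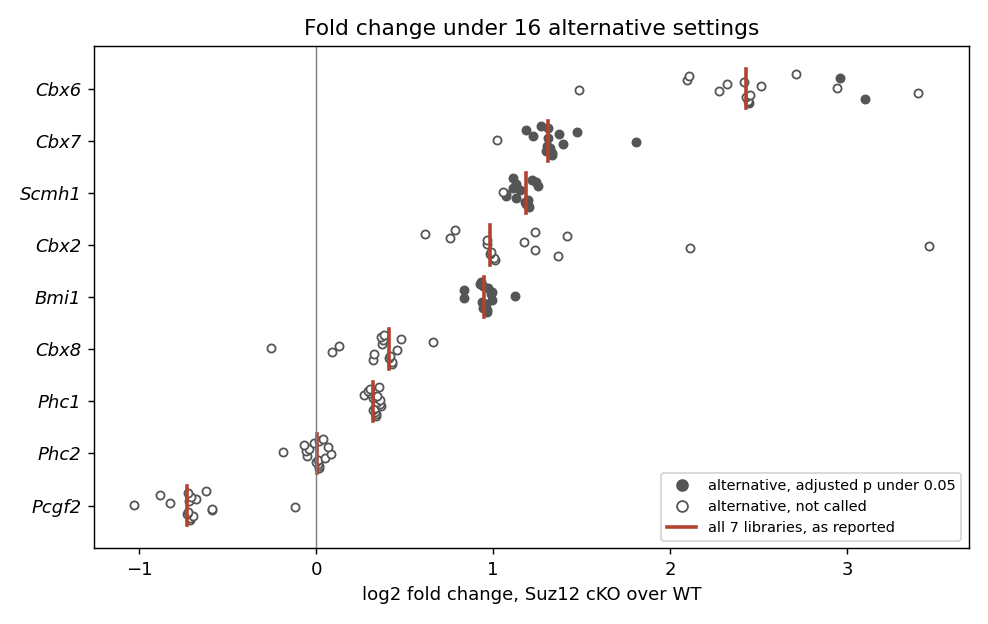
Log2 fold change of each member, Suz12 cKO over WT (horizontal axis), under 16 alternative settings (points, filled where the adjusted p was under 0.05) and as reported (bar). All Bmi1 points are filled and lie between 0.83 and 1.12, Cbx7 and Scmh1 have 1 open point each, and Phc2 lies on both sides of 0.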

How the data were processed

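RNA of flow-sorted alveolar macrophages from 3 Suz12 cKO and 4 WT chimeras was measured by polyadenylated RNA sequencing, with single-end reads of 85 bp, with 14 to 20 M reads stated for each sample, per the labels. The deposited values are raw gene counts, which the authors obtained with featureCounts and mm10, per the submitters' processing notes. The sources used here do not state the aligner, annotation, strand setting or treatment of multi-mapping reads. Library totals (48104653 to 79281431) exceed the stated reads for a reason not given there, so intervals and errors cover the spread between libraries and not the number of starting molecules. Whether the libraries are of single animals is not stated beyond the words biological replicates.

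Groups followed the genotype label. Entrez numbers were matched to RefSeq GRCm38.p6 symbols (25275 of 27179). Replicates were compared and no library copied another (Pearson's r across genes 0.916 to 0.969). Genes were filtered with filterByExpr (minimum count 10, minimum total 15), scaled by TMM and compared with edgeR 4.0.16 in R 4.3.3 (quasi-likelihood F-test, genotype as the sole term, Benjamini-Hochberg adjustment over 14436 genes, called under 0.05). SE is the log2 fold change divided by the square root of F. Differences between paralogues were taken on log2 CPM (prior count 2) with a two-sided exact permutation test. Alternatives were other scalings, no filter, DESeq2 1.42.0, limma-voom (limma 3.58.1), a replicate block, the haemoglobin split at 20 CPM and leaving out each library.

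Named were the 9 members, Suz12, the nearest annotated genes, the 3 nearest patterns per member, and from each list the genes called plus the 3 with the smallest p. The members and lists were chosen with earlier results of these data known. Of the genes so named, 1 is not reported here, and the results that need it, its list's count and median and the search for outlying libraries in it, were left out. Listed symbols without a match or under the count filter were not tested.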

Additional observations from a re-analysis of the deposited data

Results flagged for a closer look

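Within WT, the group examined, Cbx8 had the single value set apart from the other libraries. WT replicate 2 had 9.17 CPM, against 7.61 CPM in the next highest and 7.34 CPM in the lowest, and the gap to the next was 0.854 of the whole range, over Dixon's 95% critical value for 4 samples. The level of 39 genes and paralogue differences reported here was examined in this way in WT, and chance gives about 1 in 20. The Suz12 cKO libraries were not examined for such values. WT replicate 2 is also the WT library over the haemoglobin threshold. The SD of Cbx8 was 0.880 CPM in WT and 3.93 CPM in Suz12 cKO.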

How the results depend on the processing

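The number of members called lower was 0 under all 16 alternatives. The number called higher was 3 in 12 of them, 4 with DESeq2, with limma-voom and without WT replicate 2 (Cbx6 added), and 1 within the libraries under the haemoglobin threshold, where Cbx7 (1.02, adjusted p = 0.0740) and Scmh1 (1.06, adjusted p = 0.0613) were not called. That comparison has 1 Suz12 cKO library. Leaving out libraries gave 3 to 4 members called higher. Cbx6 was 2.44 with DESeq2, 3.10 with limma-voom and 2.96 without WT replicate 2.

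Over all genes, 1457 were called higher with DESeq2 and 585 with the replicate block, and 447 to 1515 when a library was left out, the highest without WT replicate 2. The number called lower was 278 with the block, 328 within the libraries over the haemoglobin threshold and 367 within those under it, and 268 to 885 when a library was left out. The replicate numbers did not pair the libraries (correlations of same-numbered deviations -0.04, 0.24 and 0.16). With the replicate block Bmi1, Cbx7 and Scmh1 had 0.94, 1.31 and 1.13, all called.

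The following signs turned. Cbx8 was -0.26 within the libraries under the threshold. Phc2 was -0.053 with a term for haemoglobin, -0.19 within the libraries under the threshold and between -0.065 and 0.069 when a library was left out. Cbx7 over Cbx6 was 0.35 within the libraries over the threshold, and Cbx7 over Cbx2 lay between -0.36 and 0.49 when a library was left out. The causes were not tested. Scaling moved the median of all genes by under 0.1 on the log2 scale. Cbx2, Cbx6 and Pcgf2 have the fewest counts and the widest errors.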
